A study of Mus musculus with 12 samples.

Results

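The genes described here were those of the entry of pyruvate into mitochondria and of its oxidation to acetyl-CoA: Mpc1 and Mpc2, which form the mitochondrial pyruvate carrier, Pdha1, Pdhb, Pdhx, Dlat and Dld, which encode the subunits of the pyruvate dehydrogenase complex, and Pdk1, Pdk2 and Pdk3, kinases that inhibit it. They were chosen by name, as the rows of the deposited count table that carry these 10 symbols among its 13780 genes. All 10 passed the filter on low values, which kept 13767 genes. A further kinase of the complex, Pdk4, was not among the genes tested, so statements on the kinases cover Pdk1, Pdk2 and Pdk3. RNA was sequenced from mouse splenic CD8+ T cells of C57BL/6J animals aged 8 to 12 weeks, purified by positive selection on magnetic beads. Naive cells (4 libraries) were frozen directly after isolation. Media cells (4 libraries) were activated for 72 h in plain media by beads carrying antibodies to CD3 and CD28, with human recombinant IL-2 at 10 U/ml, and lactate cells (4 libraries) were activated in the same way with 40 mM sodium lactate. The comparison of lactate with media asks how activated cells differ in the presence of lactate, and that of media with naive cells asks what activation did without it. The control was plain media and not a matched sodium salt, so lactate, sodium and osmolarity cannot be told apart.

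Pyruvate made in the cytosol by glycolysis, or from lactate by lactate dehydrogenase, enters the mitochondrial matrix through the carrier, in which Mpc1 and Mpc2 pair. In the matrix the complex removes its carboxyl group on the heterotetramer of Pdha1 and Pdhb, passes the acetyl group to coenzyme A on the lipoylated arms of Dlat, and reoxidises the lipoyl group with Dld, which Pdhx tethers to the core. The kinases phosphorylate Pdha1 and switch the complex off, and the phosphatases Pdp1 and Pdp2 switch it on again. Activated T cells are known for turning much of their pyruvate into lactate, and Pdk1 is a textbook target of the hypoxia-inducible factor HIF-1.

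The promoter sequences of the 3 kinases are shown because all 3 kinases had lower levels in every lactate library than in any media library. Each run is the 250 bases before the first start listed by RefSeq on GRCm38.p6, read 5′ to 3′ on the strand of the gene, and capitals mark ACGTG or GCGTG, the core letters that HIF-1 binds, on either strand. On the opposite strand these letters read CACGT and CACGC.
Pdk1: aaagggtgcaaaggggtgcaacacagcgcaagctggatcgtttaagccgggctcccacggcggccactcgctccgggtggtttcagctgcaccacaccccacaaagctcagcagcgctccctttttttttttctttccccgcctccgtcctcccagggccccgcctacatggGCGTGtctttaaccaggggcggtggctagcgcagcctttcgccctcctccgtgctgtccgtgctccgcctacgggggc
Pdk2: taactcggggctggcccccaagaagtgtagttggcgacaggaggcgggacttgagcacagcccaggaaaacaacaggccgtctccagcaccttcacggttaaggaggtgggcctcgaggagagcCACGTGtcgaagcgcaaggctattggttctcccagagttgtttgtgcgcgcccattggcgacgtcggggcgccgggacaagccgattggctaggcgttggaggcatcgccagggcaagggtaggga
Pdk3: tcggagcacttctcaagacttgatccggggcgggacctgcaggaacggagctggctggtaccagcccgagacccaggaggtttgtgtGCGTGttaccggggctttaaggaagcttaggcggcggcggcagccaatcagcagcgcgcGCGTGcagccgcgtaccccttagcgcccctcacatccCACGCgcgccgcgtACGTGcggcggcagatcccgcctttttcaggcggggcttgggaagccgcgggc
The Pdk1 run lies at chr2:71872974-71873223 on the plus strand, the Pdk2 run at chr11:95041372-95041621 on the minus strand, and the Pdk3 run at chrX:93832151-93832400 on the minus strand. The Pdk1 run held GCGTG at 1 place, the Pdk2 run held a single CACGTG, which reads ACGTG on both strands, and the Pdk3 run held ACGTG at 1 place and GCGTG at 3. Of 27025 promoters of the same length, 16.6% held ACGTG and 28.2% held GCGTG on either strand, against 3 and 7 of the 10 genes described here. ACGTG stood in Pdhb, Pdk2 and Pdk3, and GCGTG in Mpc1, Mpc2, Pdha1, Pdhb, Pdhx, Pdk1 and Pdk3. The matches were thus not limited to the kinases. The 27025 promoters were not matched for GC content, which was 64.0%, 62.4% and 67.6% in the runs of Pdk1, Pdk2 and Pdk3. GTAAACA, the letters bound by FOXO factors, stood in 3.09% of all promoters and in 0 of the 10, and CACGTG stood in 6.05% and in 1 of the 10. The palindromic motif of NRF1 stood in 3.86% and in 0 of the 10. A match is a description of the letters, and 0 matches say nothing of the factor.

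Total counts ranged from 16439750 to 18601223 in naive, from 15842423 to 20922872 in media and from 14726904 to 21478137 in lactate libraries. Levels below are CPM, the counts of a gene relative to the TMM-scaled library total, and adjusted p values are those of edgeR's quasi-likelihood test with Benjamini-Hochberg adjustment over all 13767 genes, called at 0.01. The labels number 3 naive, 3 media and 2 lactate libraries from 1 to 9 and the other 4 from 16 to 26, called low-numbered and high-numbered here. An activated media and lactate library with the same animal tag within a number set were taken as 1 donor, which gave 3 donors with both. The labels give no donor for naive cells. The CD8+ T cell markers Cd8a, Cd8b1, Cd3e, Cd3d and Cd3g were all expressed, with a summed level of 1580 to 3580 CPM in naive, 2740 to 3460 CPM in media and 2050 to 2610 CPM in lactate libraries. Cd3e, Cd3d and Cd3g were lower with lactate (3 of 5 markers called, against 11.1% of all genes lower). The naive libraries also held transcripts of other cells: the 6 B cell markers summed to 486 to 1180 CPM against at most 16.7 CPM in activated libraries, the 6 myeloid markers to 490 to 1570 CPM against at most 18.9 CPM, and the 5 red cell markers measured to 85.1 to 3500 CPM against at most 1.9 CPM. The 3 NK cell markers summed to 5.06 to 13.6 CPM in naive libraries and to at most 5.48 CPM in activated ones. The CD4+ T cell markers Cd4, Zbtb7b and Cd40lg summed to 43.4 to 74.6 CPM in naive, 47.9 to 60.6 CPM in media and 83 to 96.2 CPM in lactate libraries. These 3 markers went in different directions. Mean Zbtb7b was 22.1, 47.4 and 81.4 CPM in naive, media and lactate libraries. Mean Cd4 was 22.1, 0.348 and 0.541 CPM in that order, and mean Cd40lg 15.7, 4.77 and 7.38 CPM. The part of these other cells in the differences from naive cells was not tested. In bulk RNA, fewer cells of a type and less RNA per cell cannot be told apart.

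With lactate, activated cells had more transcript of the carrier subunit Mpc2 and of the subunits Pdha1, Pdhx, Dlat and Dld, and less of the kinase Pdk2. These 6 of the 10 genes passed the test (60.0%), 5 higher and 1 lower, against 25.1% of all genes tested, of which 13.9% were higher and 11.1% lower. In 8 of the 10 genes the lactate and media libraries did not overlap, 5 with lactate above media and 3 with it below, against 44.7% of all genes, 23.2% with lactate above and 21.5% below. The median log2 difference was 0.25 over the 10 genes and -0.0016 over all genes. The difference had the same sign in the low-numbered and in the high-numbered libraries for 10 of 10 genes. For the 8 genes without overlap no other outcome was possible, and the high-numbered media set was 1 library. Leaving out 1 library at a time, the number called was 2 without lactate 3 or lactate 4 and 3 without media 2, media 4 or lactate 1. It was 8 without naive 4 and 4 without each of the others. Over all genes the number moved as well, from 2252 without media 2 to 4845 without naive 4, against 3451 with every library. It was 2319 without lactate 3 and 2391 without lactate 4. A fit with the donor as a block, over all 12 libraries, left 1 of the 6 calls, that of Pdk2, and called 992 of all genes. Media 2 and lactate 3 had no partner of the same donor. The difference in this fit thus came from the 3 donors with both conditions, and the naive libraries entered only its scaling, filter and estimate of the spread. The same block fitted on the 8 activated libraries alone called 4 of the 10 genes, Dlat, Dld, Pdk1 and Pdk2, and 3654 of all genes. That choice was made after the values were seen.

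**Figure D1:**
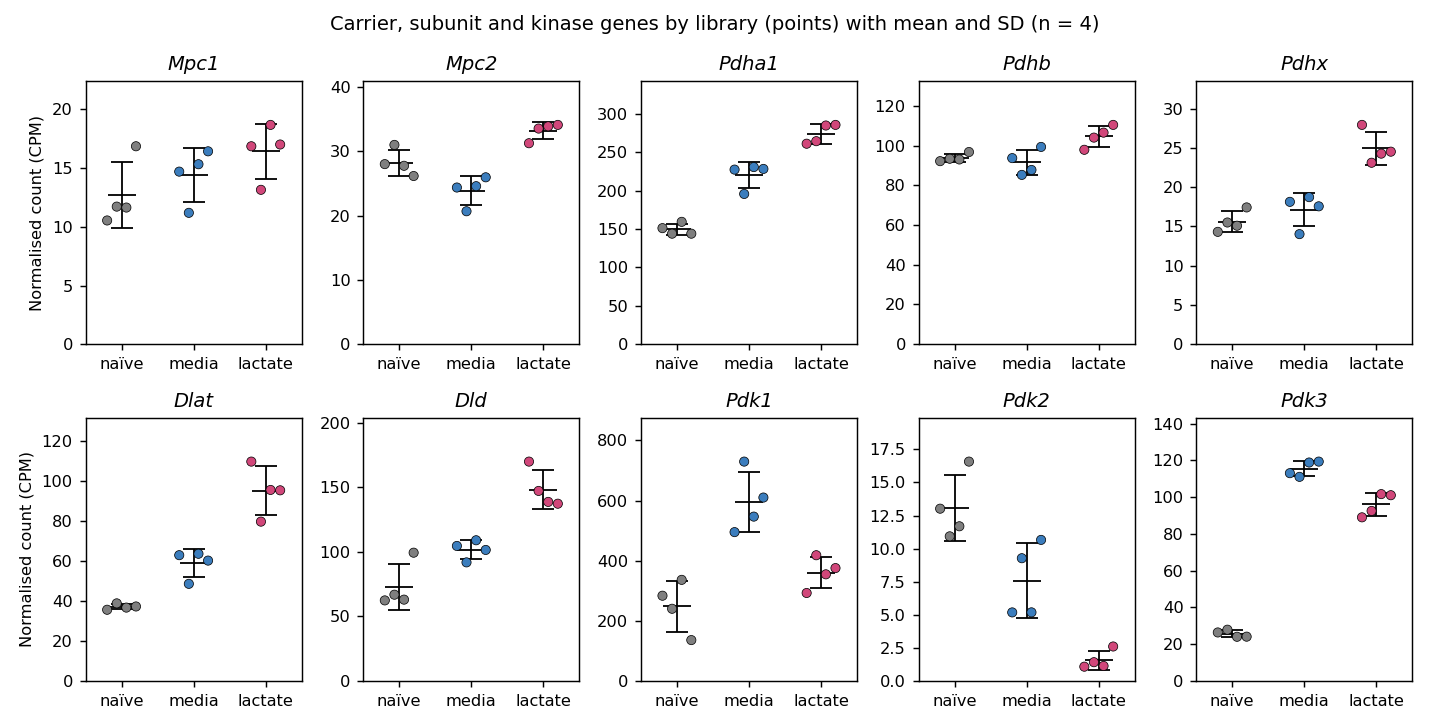
Levels of the 10 genes in each library, in TMM-scaled CPM on linear axes from 0, with naive, media and lactate libraries side by side and lines at each group's mean and SD (n = 4). Pdk2 runs from 10.9 to 16.6 CPM in naive, from 5.18 to 10.7 CPM in media and from 1.08 to 2.6 CPM in lactate libraries, while Pdhb stays between 85.2 and 110 CPM in all 12.

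Of the carrier, Mpc2 rose with lactate and Mpc1 did not pass the test. Mpc2 (ENSMUSG00000026568, GRCm38 chr1:165460637-165481214, plus strand) was at 28.0, 31.0, 27.7 and 26.2 CPM in the naive libraries, at 24.4, 20.7, 24.6 and 26.0 CPM in the media libraries and at 31.3, 33.5, 33.9 and 34.1 CPM in the lactate libraries. Every lactate library lay above every naive and every media library. The log2 difference between lactate and media was 0.47 (95% interval 0.26 to 0.69, edgeR adjusted p = 0.00262), and with the donor block it was 0.40 (edgeR adjusted p = 0.0396). It was not called without lactate 3 (edgeR adjusted p = 0.0114) or lactate 4 (edgeR adjusted p = 0.0121).

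Mpc1 (ENSMUSG00000023861, GRCm38 chr17:8282904-8297661, plus strand) was at 10.5, 11.7, 11.6 and 16.9 CPM in naive, 14.7, 11.2, 15.3 and 16.4 CPM in media and 16.9, 13.2, 18.7 and 17.0 CPM in lactate libraries. All 3 groups overlapped. The log2 difference between lactate and media was 0.19 (95% interval -0.20 to 0.58, edgeR adjusted p = 0.441), and an exact two-sided permutation test over 70 arrangements gave p = 0.314. An opposite-strand gene, 4930506C21Rik, overlaps 23.1% of the exon sequence of Mpc1, and the strand setting of the counting was not given in the sources used here, so reads of the pair may be shared.

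Of the subunits, 4 of 5 rose with lactate, and the log2 differences ran from 0.19 for Pdhb to 0.69 for Dlat. Dlat, the acetyltransferase core (ENSMUSG00000000168, GRCm38 chr9:50634633-50659780, minus strand), was at 35.6, 38.8, 36.6 and 37.2 CPM in naive, 62.8, 48.5, 63.5 and 60.1 CPM in media and 110, 79.6, 95.4 and 95.2 CPM in lactate libraries. The 3 groups formed separate steps with no overlap. Lactate lay above media by 0.69 on the log2 scale (95% interval 0.45 to 0.94, edgeR adjusted p = 0.000536; with the donor block 0.60, edgeR adjusted p = 0.0107).

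Pdhx, the subunit that holds Dld to the core (ENSMUSG00000010914, GRCm38 chr2:103021075-103073513, minus strand), was at 14.3, 15.5, 15.1 and 17.4 CPM in naive, 18.1, 14.0, 18.7 and 17.6 CPM in media and 27.9, 23.1, 24.3 and 24.5 CPM in lactate libraries. Naive and media libraries overlapped, and every lactate library lay above both. The log2 difference between lactate and media was 0.54 (SE 0.123, edgeR adjusted p = 0.00407; with the donor block 0.47, edgeR adjusted p = 0.0451). It was not called without media 2, media 4, lactate 1, lactate 3 or lactate 4, with edgeR adjusted p from 0.011 to 0.0146.

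Dld, the dihydrolipoyl dehydrogenase that the complex shares with other enzymes (ENSMUSG00000020664, GRCm38 chr12:31331277-31351453, minus strand), was at 62.3, 66.7, 62.9 and 99.3 CPM in naive, 104, 91.8, 109 and 101 CPM in media and 170, 147, 139 and 137 CPM in lactate libraries. Lactate libraries lay above all others, and naive 4 stood among the media libraries. The log2 difference between lactate and media was 0.54 (SE 0.144, edgeR adjusted p = 0.00997), close to the threshold, and with the donor block it was 0.52 (edgeR adjusted p = 0.0911). Leaving out any 1 library other than naive 4 ended the call, with edgeR adjusted p from 0.0101 to 0.0354.

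Pdha1, the catalytic subunit that the kinases phosphorylate (ENSMUSG00000031299, GRCm38 chrX:160122209-160138413, minus strand), was at 151, 144, 159 and 144 CPM in naive, 227, 196, 231 and 228 CPM in media and 261, 264, 285 and 285 CPM in lactate libraries. The groups rose in that order with no overlap. Lactate lay above media by 0.31 on the log2 scale (SE 0.0803, edgeR adjusted p = 0.00837; with the donor block 0.24, edgeR adjusted p = 0.0934), and leaving out any 1 library other than naive 4 ended the call, with edgeR adjusted p from 0.0114 to 0.0356. Map3k15, on the opposite strand, overlaps 16.1% of its exon sequence.

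Pdhb, the partner of Pdha1 (ENSMUSG00000021748, GRCm38 chr14:8165996-8173025, minus strand), was at 92.1, 93.4, 93.0 and 96.8 CPM in naive, 93.7, 85.2, 87.7 and 99.3 CPM in media and 97.9, 104, 107 and 110 CPM in lactate libraries. The lowest lactate library stood below the highest media library. The log2 difference of 0.19 did not pass the test (95% interval 0.03 to 0.36, edgeR adjusted p = 0.0583).

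Of the kinases, Pdk2 fell with lactate, while Pdk1 and Pdk3 had lower values that did not pass at 0.01. Pdk2 (ENSMUSG00000038967, GRCm38 chr11:95026258-95041354, minus strand) was at 13.0, 10.9, 11.7 and 16.6 CPM in naive, 5.18, 9.28, 5.18 and 10.7 CPM in media and 1.08, 1.41, 1.13 and 2.6 CPM in lactate libraries. The groups fell in that order with no overlap, and the lactate libraries held 16 to 54 counts of it each. It was 4.8-fold lower with lactate than with media (log2 difference -2.26, SE 0.336, edgeR adjusted p = 0.000321), and its donor block value was -2.05 (edgeR adjusted p = 0.00232). Between lactate and media, Pdk2 was the 1 gene of the 10 that passed under every setting tried.

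Pdk1 (ENSMUSG00000006494, GRCm38 chr2:71873224-71903858, plus strand) was at 283, 240, 336 and 136 CPM in naive, 495, 730, 547 and 610 CPM in media and 292, 418, 355 and 375 CPM in lactate libraries. Every lactate library lay below every media library, and 3 of the 4 lactate libraries lay above the highest naive library. The log2 difference between lactate and media was -0.72 (95% interval -1.22 to -0.23, edgeR adjusted p = 0.0237), and it was called in the fit without naive 4 (edgeR adjusted p = 0.00175).

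Pdk3 (ENSMUSG00000035232, GRCm38 chrX:93764607-93832201, minus strand) was at 26.4, 27.9, 24.0 and 24.1 CPM in naive, 113, 111, 119 and 119 CPM in media and 89.1, 92.5, 102 and 101 CPM in lactate libraries. Activated libraries lay far above naive ones, and lactate libraries lay below media libraries without overlap. The log2 difference between lactate and media was -0.27 (95% interval -0.44 to -0.09, edgeR adjusted p = 0.0193). For each of the 8 genes whose groups did not overlap, the exact two-sided permutation test gave p = 0.0286, the smallest value that 4 against 4 libraries allow.

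**Figure D2:**
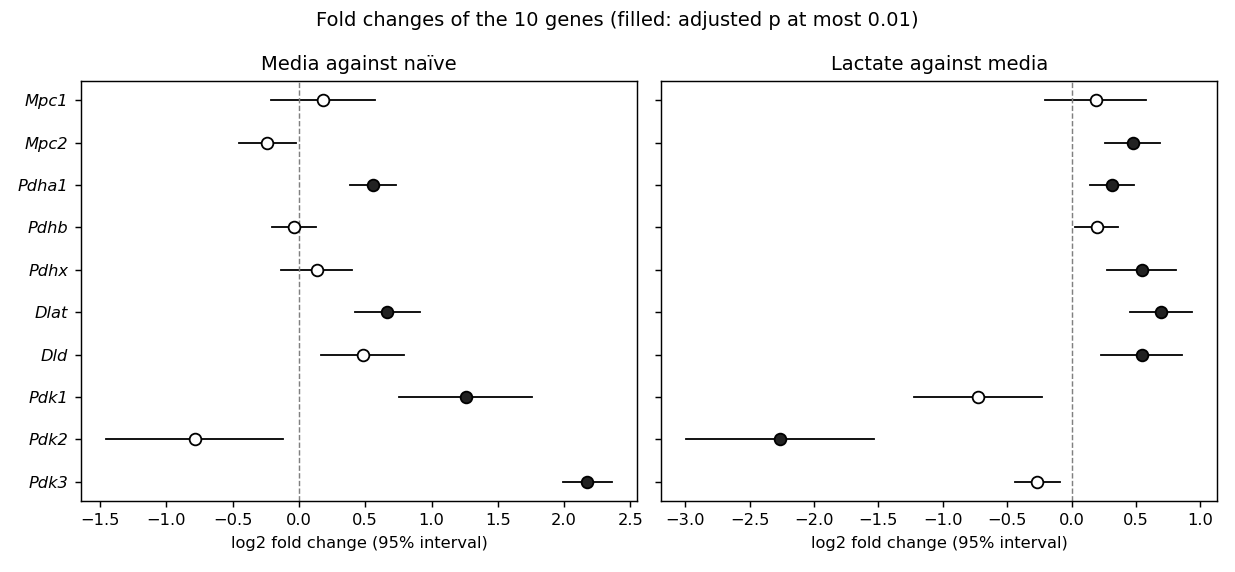
Log2 fold changes of the 10 genes in media against naive and in lactate against media, as points with 95% intervals from the edgeR fit, with filled points for an adjusted p of at most 0.01. Between lactate and media the points run from -2.26 for Pdk2 to 0.69 for Dlat, with the carrier and subunit genes to the right of 0 and the kinases to the left.

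Within the 3 donors that gave both conditions, the carrier and subunit genes other than Mpc1 were higher with lactate in 3 of 3 pairs, and the kinases were lower in 3 of 3. For the 8 genes whose lactate and media libraries did not overlap, no other sign was possible. The log2 difference within pairs ran from 0.36 to 0.45 for Mpc2, from 0.33 to 0.80 for Dlat, from 0.43 to 0.70 for Dld and from 0.06 to 0.25 for Pdhb. For Pdk1 it ran from -0.76 to -0.39, for Pdk2 from -2.16 to -1.80 and for Pdk3 from -0.36 to -0.24. Mpc1 was higher in 2 pairs and lower in 1, from -0.22 to 0.20.

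**Figure D3:**
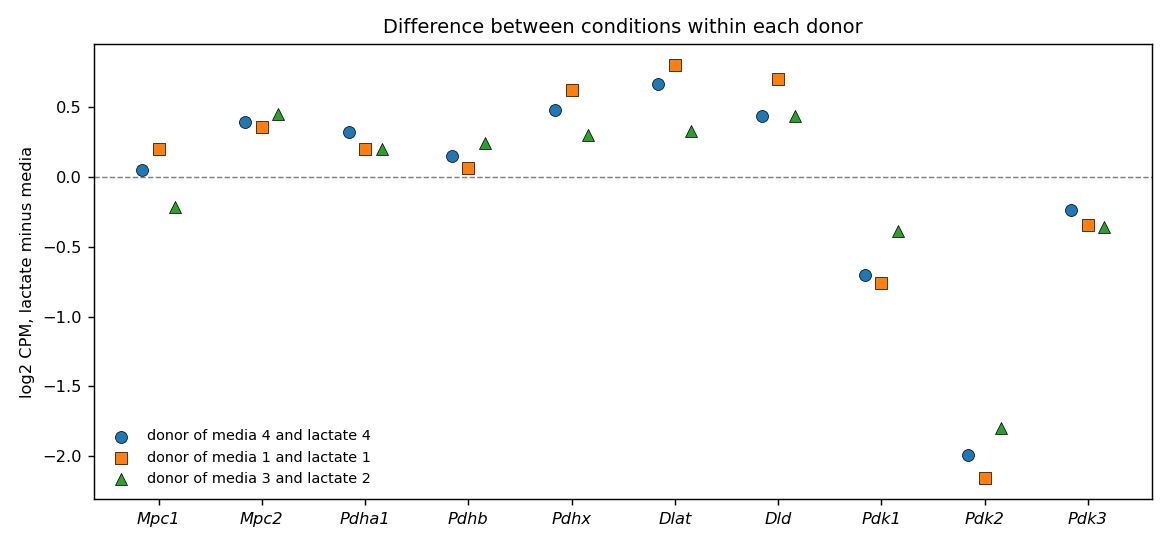
Log2 difference between the lactate and the media library of the same donor for the 10 genes, 1 point for each of 3 donors. The 3 points of Pdk2 lie between -2.16 and -1.80, and those of Dlat between 0.33 and 0.80.

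Media 2 and naive 4 stood apart from their groups in several genes. Media 2 had the lowest media level of all 7 carrier and subunit genes and the highest of Pdk1. Without that library 3 of the 10 genes were called between lactate and media, and 2252 of all genes, against 3451 with every library. Naive 4 had the highest naive level of 4 of the 7 carrier and subunit genes and the lowest of Pdk1, the lowest summed level of the CD8+ T cell markers at 1580 CPM, and it was the 1 high-numbered naive library. Without it 8 of the 10 genes were called, and 4845 of all genes. The part of the number set and of the cell mix in these values was not tested.

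Levels were compared between genes as TPM, a share of all transcripts computed from counts divided by the gene length in the table. In media Pdk1, Pdk2 and Pdk3 together, called the kinase TPM here, stood at 430 ± 43.4 TPM (SD, n = 4). They stood at 266 ± 21.3 TPM in lactate and at 157 ± 33.2 TPM in naive cells, and the ranges did not overlap. Of these kinases Pdk1 had the highest TPM in every group, and its mean share of the kinase TPM was 67.8% in naive, 61.4% in media and 54.7% in lactate. The mean share of Pdk3 was 22.6%, 36.7% and 44.7% in that order, and that of Pdk2 was 9.65%, 1.9% and 0.578%.

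The kinase TPM divided by the TPM of Pdha1, the subunit they act on, was 0.833 to 1.32 in naive, 1.8 to 2.67 in media and 1.04 to 1.28 in lactate libraries. The media libraries lay apart from both other groups. The lactate libraries lay within the naive range, but its low end was naive 4 alone, at 0.833. Naive 1, naive 2 and naive 3 stood at 1.26, 1.17 and 1.32, above lactate 1, lactate 3 and lactate 4 at 1.04, 1.12 and 1.16. Lactate 2 stood at 1.28. With the length of the principal transcript in place of the gene length the ranges were 0.89 to 1.46, 1.9 to 2.87 and 1.08 to 1.35. These ratios are of transcript levels and give no kinase activity.

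**Figure D4:**
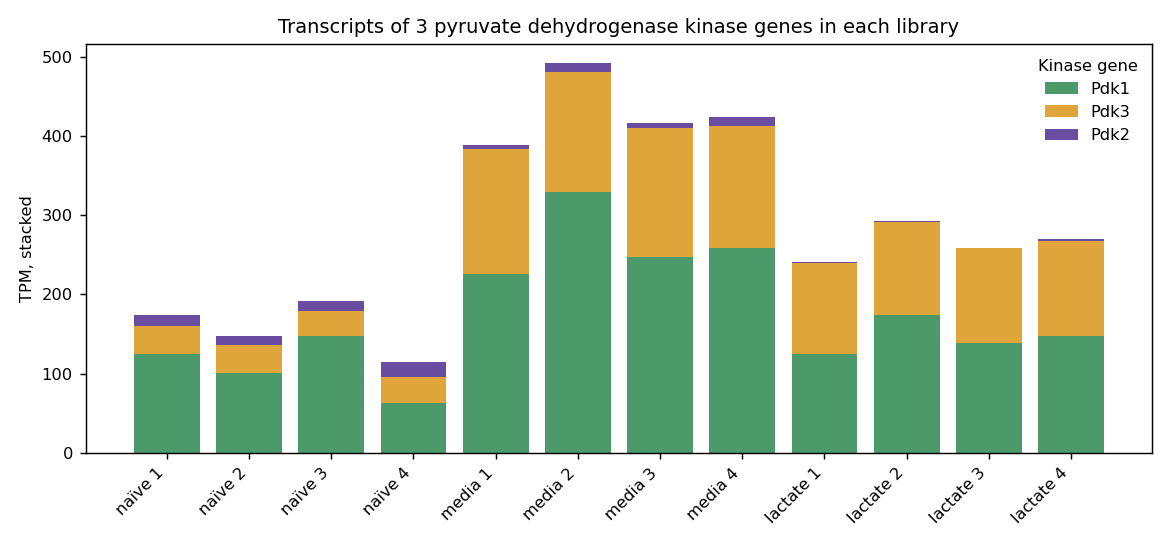
TPM of Pdk1, Pdk2 and Pdk3 stacked for each library, with the summed height on an axis from 0. Bars are lowest in naive libraries (115 to 191 TPM), highest in media libraries (389 to 491 TPM) and between them in lactate libraries (241 to 292 TPM), and the Pdk3 section grows from naive to activated libraries.

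Among the subunits, the TPM of Pdha1 relative to Dlat was 5.29 ± 0.396 in naive, 4.93 ± 0.256 in media and 3.82 ± 0.512 in lactate libraries (mean ± SD, n = 4), and the lactate range of 3.12 to 4.35 lay below that of media, 4.73 to 5.28. Dlat relative to Pdhx was 1.92 ± 0.136, 2.76 ± 0.0275 and 3.05 ± 0.189 in that order. Which subunit stands higher depends on the length used: Mpc2 relative to Mpc1 was 0.474 in media with the gene length and 1.56 with the principal transcript, and Pdha1 relative to Pdhb in naive cells was 1.65 and 0.848.

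Activation in plain media raised Pdk3, Pdk1, Dlat and Pdha1, and none of the 10 genes fell past the threshold. These 4 of 10 genes (40.0%) compare with 57.5% of all genes called, 28.5% higher and 29.0% lower. In 6 of the 10 the media and naive libraries did not overlap, 4 with media above and 2 below, against 61.2% of all genes, 30.7% above and 30.5% below. Pdk3 rose 4.52-fold (log2 difference 2.18, SE 0.0849, edgeR adjusted p = 2.08e-09), which was the largest change of the 10. Pdk1 rose by 1.26 on the log2 scale (SE 0.231, edgeR adjusted p = 0.000359), with a difference of 1.04 in the low-numbered and 2.17 in the high-numbered libraries, where naive 4 is the single naive library.

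Dlat rose by 0.67 (edgeR adjusted p = 0.000189) and Pdha1 by 0.56 (edgeR adjusted p = 5.04e-05) on the log2 scale. Dld was higher by 0.48, short of the threshold, and by 0.66 without naive 4, when it passed (edgeR adjusted p = 4.57e-05). Pdk2, at -0.79 (edgeR adjusted p = 0.0369), and Mpc2, at -0.24 (edgeR adjusted p = 0.0468), had every media library below every naive library without passing. Mpc1, Pdhb and Pdhx differed by 0.18, -0.04 and 0.14 and did not pass.

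The comparison of lactate with naive cells spans activation and lactate together, and it shares its libraries with both comparisons above. The test called 6 of 10 genes, against 65.0% of all genes, 33.0% higher and 32.0% lower. In 8 of the 10 the libraries did not overlap, 7 with lactate above and 1 below, against 67.8% of all genes, 35.0% above and 32.8% below. Dlat at 1.36 on the log2 scale (edgeR adjusted p = 3.52e-07), Dld at 1.03, Pdha1 at 0.87, Pdhx at 0.68 and Pdk3 at 1.91 were higher, and Pdk2 was 8.28-fold lower (edgeR adjusted p = 4.33e-06). Pdk1 was at 0.53 (edgeR adjusted p = 0.0498), Mpc2 at 0.23, Mpc1 at 0.37 and Pdhb at 0.16, none of which passed.

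Of the enzymes that build the lipoyl arms of Dlat and Pdhx, 5 of 7 rose with lactate and 0 fell, against 13.9% of all genes higher and 11.1% lower, with a median log2 difference of 0.72. Lipt2, the transferase that starts lipoate attachment, went from 0.980 ± 0.232 to 2.98 ± 0.400 CPM (log2 difference 1.59, edgeR adjusted p = 0.0004). Lias, the lipoate synthase, went from 30.0 ± 2.22 to 51.6 ± 4.50 CPM (0.78, edgeR adjusted p = 0.000249). Mcat, Mecr and Ndufab1, of the mitochondrial fatty acid synthesis that supplies the octanoyl precursor, rose by 0.71, 0.72 and 0.71. Lipt1 differed by 0.73 (edgeR adjusted p = 0.0214) and Oxsm by 0.05. With the donor block 2 of the 7 were called, Lias and Ndufab1, among 992 of all genes. With that block on the activated libraries alone 5 were, among 3654.

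The phosphatases did not pass the test between lactate and media: Pdp1 differed by 0.11, Pdp2 by -0.34 (edgeR adjusted p = 0.0355) and their regulatory subunit Pdpr by -0.70 (edgeR adjusted p = 0.0175). Pdp2 was called lower with the donor block on the activated libraries alone, and Pdpr by the likelihood ratio test, by DESeq2, with upper quartile scaling and without naive 4.

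Of the other enzymes that use Dld, 3 of 8 rose and 1 fell with lactate, against 13.9% and 11.1% of all genes. The glycine cleavage genes Gldc (log2 difference 3.47) and Gcsh (1.08) and the oxoglutarate dehydrogenase core Dlst (0.60) rose, and Amt, also of glycine cleavage, fell by 1.33. Gldc was low, at 0.254 ± 0.0652 CPM in media and 2.91 ± 0.990 CPM in lactate. With a mean of 0.0276 CPM in naive libraries, it passed the filter on low values through the lactate libraries alone. With at least 10 counts required in every library, Gldc was not tested, and 2 genes of this list rose and 1 fell. Amt was not called without media 2, lactate 1, lactate 3 or lactate 4, nor with the donor block in either fit. Of the other enzymes of pyruvate, 2 of 7 were called, both higher, a share near the 25.1% of all genes called: the alanine transaminase Gpt2 rose by 1.49 and Ldha by 0.45. Ldha was not called without media 2, media 3, media 4, lactate 3 or lactate 4, with upper quartile scaling, or with the donor block in either fit. Among the 6 genes of acetyl-CoA use, 1 rose and 2 fell, against 13.9% and 11.1% of all genes. Citrate synthase Cs rose by 0.40, and the acetyl-CoA synthetases Acss1 and Acss2 fell by 1.08 and 0.95. Cs was not called without media 2, media 4, lactate 1, lactate 3 or lactate 4, or with the donor block in either fit, and Acss2 was not called without any 1 of those libraries or media 3, or with the donor block over all 12 libraries. That block called Gldc, Gcsh, Gpt2 and Acss1 in these lists.

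Of the 11 genes listed and tested as HIF-1 targets other than Pdk1, 5 fell with lactate and 0 rose. Over all genes 11.1% were lower and 13.9% higher, and the median log2 difference of the list was -0.58. The list does not hold every HIF-1 target. Ldha was placed with the enzymes of pyruvate above, and it rose by 0.45 with the limits given there. Aldoc went from 353 ± 48.9 CPM in media to 87.3 ± 32.8 CPM in lactate (log2 difference -2.02), and Ndrg1, Ankrd37, P4ha1 and Egln1 fell by 1.39, 1.15, 0.65 and 0.58. Egln3 (0.24), Slc2a1 (-0.01) and Pgk1 (-0.13) did not pass. Without media 2, media 3, media 4, lactate 1, lactate 3 or lactate 4 the count was 3, and with the donor block it was 1, against 5 when the activated libraries were fitted alone. In media against naive cells 11 of 11 rose, against 28.5% of all genes. Of the 6 regulators of the kinases tested, 1 rose and 1 fell with lactate, against 13.9% and 11.1% of all genes. Esrra rose by 0.65 and Foxo1 fell by 0.42, while Hif1a (-0.05) and Myc (0.76, edgeR adjusted p = 0.0293) did not pass. Foxo1 was not called without media 2, media 3, media 4, lactate 1, lactate 3 or lactate 4, with the block by title number, or with the donor block in either fit. Esrra was not called without media 2 or with the donor block over all 12 libraries, which called 0 of the 6, while on the activated libraries alone that block called Esrra and Myc.

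**Figure D5:**
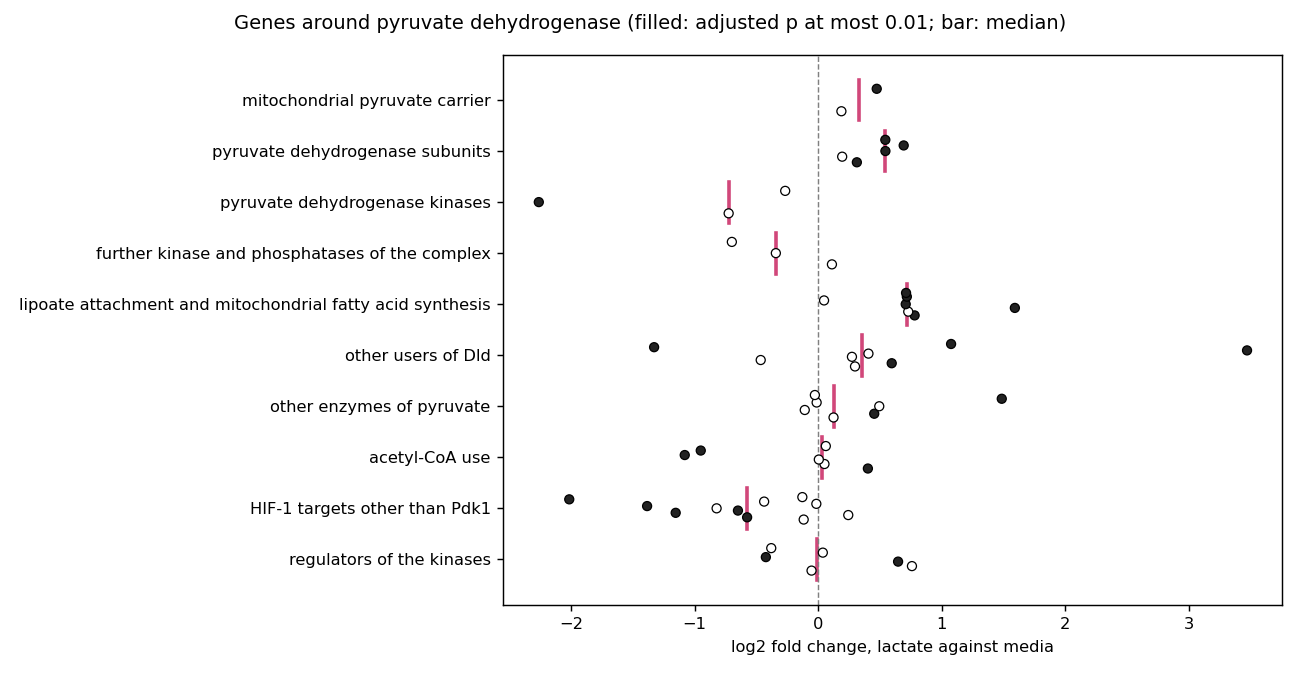
Log2 difference between lactate and media for each measured gene of the carrier, the subunits, the kinases and 7 lists around them, with filled points for an adjusted p of at most 0.01 and a bar at each list's median. The bar lies at 0.72 for lipoate attachment and mitochondrial fatty acid synthesis and at -0.58 for the HIF-1 targets, against -0.0016 over all genes.

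The genes whose pattern was most like that of a member were found by Pearson correlation of log2 CPM over the 12 libraries, among genes of at least 10 CPM on average. The libraries of a group share their treatment, so the correlation largely restates the order of the groups. Pdk1 was most like Rgs11 (r = 0.983), Fgfr1op2 (0.982) and Tab1 (0.973), and Pdk2 most like Inpp5k (0.986), Ust (0.985) and Kansl1l (0.98). Pdk3 was most like Gm4335 (0.997), the glycolytic Aldoa (0.996) and Cenpm (0.996). Mpc2 was most like Kansl2 (0.962), Akr7a5 (0.957) and Uqcc1 (0.952), and Mpc1, with the lowest likeness of the 5, most like Dhx32 (0.928), Tstd2 (0.919) and Atrip (0.915).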

How the data were processed

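Splenic CD8+ T cells were profiled by stranded mRNA sequencing (Illumina TruSeq) in 12 libraries, 4 for each of naive, media and lactate cells. Per the submitters' processing notes and methods, the authors demultiplexed reads with bcl2fastq 2.20.0.422, aligned them with STAR 2.7.5b to GRCm38, removed duplicates, and counted with featureCounts. The deposited values are raw read counts per gene, with a length for each gene. The strand setting of the counting was not given in the sources used here. Groups came from the sample titles. The 10 genes and the gene lists were chosen with earlier results of these data known.

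From the counts, genes with at least 1 CPM in at least 3 libraries were kept (13767 of 13780). The 12 libraries were fitted with edgeR 4.0.16 in R 4.3.3 (TMM scaling, a term for each group, quasi-likelihood test, Benjamini-Hochberg adjustment over all genes, threshold 0.01), and the biological coefficient of variation was 23.5%. Exact two-sided permutation tests used the 70 arrangements of 4 against 4 libraries. TPM came from counts and the length in the table, or the length of the principal transcript in GENCODE, which carries 13771 of the 13780 identifiers and the same length for 13547. Named genes were the 10 members, the listed genes that were called between lactate and media or that had the largest or smallest difference of their list, and the 3 genes most correlated with each carrier and kinase gene. Further listed genes named beside them were chosen after their values were seen. Of the 60 listed genes 51 were tested, and the others were not analysed here. The result of 1 list is not reported here. On simulated counts for lactate against media with 13350 genes in the fit, 59.4% of 2-fold and 9.23% of 1.5-fold changes were recovered, with 2 false calls.

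Alternatives were another test (edgeR's likelihood ratio test, DESeq2 1.42.0, limma 3.58.1 voom), other scalings and filters, an adjusted p of at most 0.05, blocks by donor or title number, a term for the number set, fits on 2 groups alone, and leaving out each library. The 3 pairs of activated libraries taken as the same donor, from the animal tags in the labels, had correlations of their deviations from the group means of 0.374, 0.211 and 0.553. Pairs taken as different donors ran from -0.441 to 0.372. The 2 ranges overlap, so these values do not settle which libraries share a donor. The labels name no animal for naive libraries, while the authors describe 4 independent donors for every condition. The p-values there measure the spread between these libraries.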

Additional observations from a re-analysis of the deposited data

Results flagged for a closer look

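Among 30 checks of 10 genes in 3 groups for a library far from the rest, 2 were past Dixon's 95% critical value for 4 libraries, and chance alone passes about 1 in 20. Pdha1 was at 196 CPM in media 2, with the other media libraries at 227 to 231 CPM. Dld was at 99.3 CPM in naive 4, with the other naive libraries at 62.3 to 66.7 CPM.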

How the results depend on the processing

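No difference of the 10 genes changed sign under any setting. Between lactate and media 6 of the 10 genes were called, 2 to 8 when 1 library was left out, 1 with the replicate block by donor and 4 with that block on the activated libraries alone, a setting chosen after seeing the data. The replicate block by title number, whose numbers do not all follow the donors, called 4, as did a term for the number set, and DESeq2 called 8. Of the 51 listed genes 22 were called, against 25.1% of all genes, 7 with the replicate block by donor and 12 to 26 when 1 library was left out. Of all genes 3451 were called, 992 with that block, 3654 with it on the activated libraries alone and 5461 at an adjusted p of 0.05. The number over all genes was 2252 to 4845 when 1 library was left out. It was 3256 with the title number block, 3572 with the number set term and 4551 with DESeq2. Between media and naive 4 of the 10 were called (4 to 5 when 1 library was left out, 7 at 0.05), and between lactate and naive 6 (6 to 7). With DESeq2 size factors, upper quartile scaling and total counts in edgeR, 4, 5 and 5 of the 10 were called between lactate and media: Pdha1 was lost under all 3 (edgeR adjusted p 0.0159, 0.0172 and 0.0182) and Dld under DESeq2 size factors (0.0163) and total counts (0.018), while total counts added Pdk3. None of the 3 moved the median of all genes by 0.1 on the log2 scale. Pdk1 was called between lactate and media by the likelihood ratio test (edgeR adjusted p = 0.00874), DESeq2 (0.00416) and the 2 groups alone (0.00156), and Pdk3 by DESeq2 (0.000535), total counts (0.00834) and without naive 4 (0.00889). The causes of these shifts were not tested. In simulated data for lactate against media, 9.23% of changes of 1.5-fold were recovered at this depth and number of libraries. In that simulation 13150 of 13350 genes were unchanged, while the data had 3451 of 13767 called, so the rate need not hold here. The 16 to 54 counts of Pdk2 in lactate libraries limit its precision.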
